A study of Mus musculus with 6 samples.

Results

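Mucin genes, 9 in all, were followed through exome sequencing of bone marrow and ear DNA from 3 mice: the membrane-bound mucins Muc1, Muc4, Muc13, Muc16 and Muc20 and the secreted gel-forming mucins Muc2, Muc5ac, Muc5b and Muc6. They were taken by gene name from the annotated variant lists of each sample and from the marrow-against-ear somatic call lists. Of the 9 genes, 6 held at least 1 coding site in some sample, with 158 distinct coding sites among 19223 in the whole series. The 9 genes had been selected on the protein positions, in-frame changes, mapping quality and variant fractions of these same lists, so those levels are given below as a description.

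Mucins are large glycoproteins that coat and protect epithelia. Their central stretch is rich in proline, threonine and serine, carries dense O-linked sugar chains, and is encoded by sequence repeated many times in tandem, often within a single large exon. Secreted mucins link into gels, whereas membrane-bound mucins sit on the cell surface by a transmembrane segment. Short reads from one repeat copy can match other copies, and an aligner reports such uncertainty as a low mapping quality.

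Whole bone marrow of animals 54, 108 and 136 was set against ear tissue of the same 3 animals, with 1 sample of each tissue per animal. All 6 samples came from C57BL/6 mice of the genotype R26CreERT2 Srsf2 P95H treated with tamoxifen in vivo, animals 54 and 108 male and animal 136 female. The labels give an age of 50 to 60 weeks, while the protocol counts 50 to 60 weeks from tamoxifen to the time the animals became moribund; the protocol also describes 1 of the 3 mice as hScl-CreERT R26eYFP Srsf2P95H/+ and the other two as R26-CreERT2 Srsf2P95H/+, without naming which. Srsf2 encodes a splicing factor, Cre activity after tamoxifen switches on the mutant allele, and R26-CreERT2 acts in most tissues, so ear of such an animal can carry the mutant allele as well. No untreated or Srsf2 wild-type animal was analysed here, so nothing below compares genotypes.

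The upstream sequence of Muc20 is shown because it was the only one of 8 RefSeq promoter windows, covering 7 of the 9 genes, in which any sample listed a variant. It is the 250 bases before the annotated start, GRCm38.p6 chr16:32797436-32797685, minus strand, from RefSeq. Capitals mark the reference bases that 4 variants of animal 54 replaced or removed.
Muc20 upstream: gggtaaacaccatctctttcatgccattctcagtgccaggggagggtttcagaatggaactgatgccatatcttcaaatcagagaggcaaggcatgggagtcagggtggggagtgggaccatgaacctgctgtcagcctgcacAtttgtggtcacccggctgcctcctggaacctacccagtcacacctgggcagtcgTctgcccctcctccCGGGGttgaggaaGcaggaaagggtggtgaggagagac
Single base changes lay 107, 52 and 25 bases before the start, and a deletion of 5 bases was listed at base 33, which it leaves in place. In the order 107, 52, 33 and 25, the variant was on 13 of 18, 12 of 25, 6 of 27 and 19 of 45 reads of both alleles in the marrow of animal 54. In the ear of animal 54 it was on 26 of 39, 36 of 64, 11 of 45 and 39 of 72 reads. Over all covering reads, the deletion at base 33 was on 6 of 37 in the marrow and 11 of 67 in the ear of animal 54. A further change, an insertion listed 5 bases past the start and not shown, was on 16 of 71 covering reads in the marrow and 20 of 89 in the ear of this animal. All of them were listed in both tissues of animal 54 and in no sample of animals 108 and 136.

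Muc4, a membrane-bound mucin described in rat and human cells as a partner of the receptor ErbB2, held most of the coding sites, 121 of 158, and Muc20, its neighbour on chromosome 16, held 19, with 1 site counted in both. Muc6 held 12, Muc5b 4, Muc2 2 and Muc5ac 1. Muc1, Muc13 and Muc16 had no coding site in any sample, only 1, 6 and 3 sites in introns or flanks. Across the 9 genes, 112 distinct sites altered the protein, and this count was 45 without animal 54 and 38 at a mapping quality of at least 40. Muc4 sites numbered 90 in the marrow list and 94 in the ear list of animal 54, 28 and 30 in those of animal 108, and 34 and 34 in those of animal 136. By number of Muc4 sites, animal 54 thus stood apart from animals 108 and 136 in both tissues. The lists differed in size, however. For animals 54, 108 and 136 the marrow lists held 6788, 10380 and 2645 coding sites of all genes. The ear lists held 7222, 10218 and 2843. Relative to list size, the Muc4 count of animal 136 was close to that of animal 54, and animal 108 was the lowest. A list holds only the sites that were called, so a site missing from a list has no depth or fraction there.

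**Figure D1:**
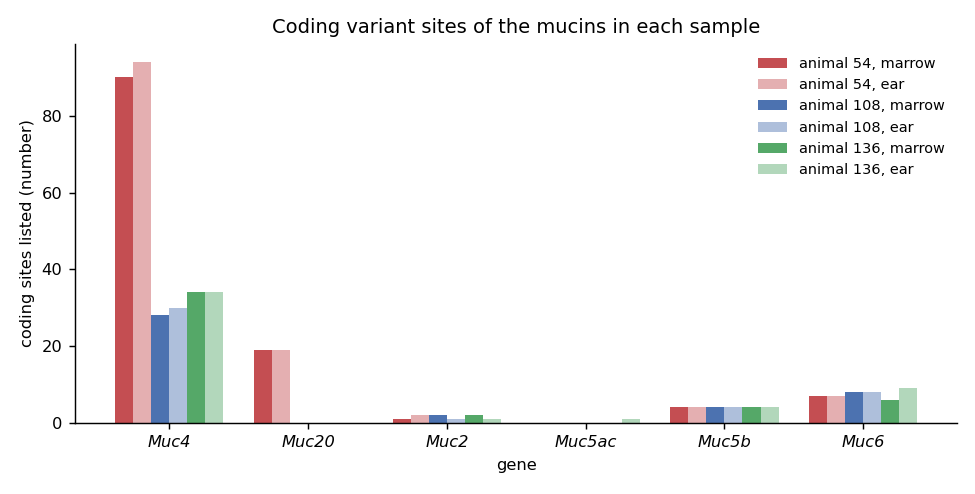
Number of coding variant sites listed in each of the 6 samples (bars, coloured by animal, full for marrow and pale for ear) for the 6 mucins that had any. Muc4 leads in every sample, and Muc20 has bars in animal 54 alone, 19 in marrow and 19 in ear.

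Mapping quality was low and depth was high at many mucin sites. The mapping quality of a site is the root mean square over its reads as SAMtools gave it, and 42 was the highest value in the lists. Taking 1 value per site and sample, 254 of 427 mucin values (59.5%) were under 30, beside 6.15% of all 40096 coding values in the series. Depth over 5 times the median coding depth of the sample was found at 243 of 427 mucin values (56.9%), beside 7.48% of all coding values. Muc4, Muc5b and Muc6 accounted for all of the low values, with 224, 18 and 12, while Muc20, Muc2 and Muc5ac had none. Median coding depth was 80, 94 and 68 reads in marrow and 114, 92 and 45 reads in the ear of animals 54, 108 and 136.

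Along the 3470 residues of Muc4 (GRCm38 chromosome 16, 32735886 to 32782391, from RefSeq), mapping quality fell and depth rose over the same stretch. The median mapping quality was 41 in residues 1 to 500, 22 in 501 to 1000, 9 in 1001 to 1500 and 21 in 1501 to 2000. It was 41 again in residues 2001 to 2500 and 42 from there to the end. The median depth was 207, 605, 732.5 and 482.5 reads in the first 4 of these windows. In the last 3 windows it was 177.5, 119 and 197 reads. Values under 30 ran from residue 598 to residue 1921, in exons 2 to 4 of 27. Not every value in that stretch was under 30, as H1783N had 33 in marrow and 32 in ear of animal 54.

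**Figure D2:**
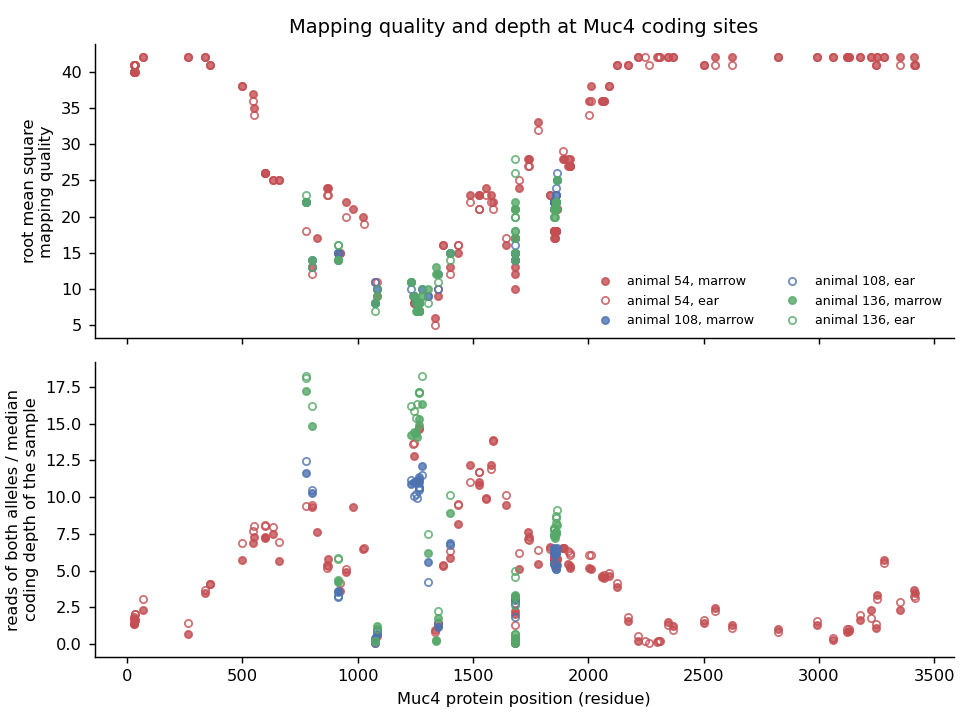
Mapping quality (top) and depth as a multiple of the sample's median coding depth (bottom) at each Muc4 coding site, by residue, with filled points for marrow and open points for ear, coloured by animal. Mapping quality dips to a median of 9 in residues 1001 to 1500, where depth has a median of 732.5 reads.

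Animals 108 and 136 had Muc4 sites only inside that stretch. Their 126 values lay between residues 775 and 1864, and all 126 had a mapping quality under 30, the highest being 28. Animal 54 had sites from residue 29 to residue 3414. Of the 121 Muc4 sites, 81 were listed in animal 54 alone, 19 in all 3 animals and 10 in both animals 108 and 136 without animal 54. Of the 19, 14 were in all 6 samples.

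Among the Muc4 sites of all 6 samples, N1246K had the lowest mapping quality of a missense change, 8 to 9. Its variant fraction was 41.4%, 51.4% and 50.9% in marrow and 40.6%, 54.1% and 54.3% in the ear of animals 54, 108 and 136, from 714 to 1563 reads. T804A, at a mapping quality of 12 to 14, was on 362 of 747, 618 of 965 and 615 of 1011 reads in marrow and on 613 of 1082, 595 of 966 and 440 of 728 reads in ear of the same animals. At both sites animal 54 had the lowest marrow value and the lowest ear value. Exact 95% intervals around a single-sample Muc4 fraction of a single nucleotide site reached a median of 3.77 percentage points to each side, and they cover counting error only.

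A run of 8 changes between residues 1850 and 1864 was on most reads in every sample, with fractions from 81.1% to 97.8%, and 5 of the 8 were under 90% in both tissues of animal 54. A1850G was on 425 of 474, 590 of 613 and 485 of 506 reads in marrow and on 627 of 697, 478 of 504 and 331 of 350 reads in the ear of animals 54, 108 and 136. S1853T was at 96.1%, 97.4% and 96.6% in marrow and 97.3%, 94.6% and 97.2% in ear. H1855N was at 86.5%, 95.1% and 93.7% in marrow and 87.9%, 93.6% and 92.9% in ear. The values were lowest in animal 54, in both tissues, at A1850G, A1850A, H1855N, S1858T and T1859R, and marrow overlapped ear at each site. S1858T ranged from 87.6% to 93.6% in marrow and from 87.9% to 94.3% in ear. The run was completed by the synonymous A1850A and by T1859R, A1860T and E1864Q, of which T1859R had the lowest fractions, 81.1%, 90.5% and 88.1% in marrow and 81.8%, 91.1% and 90.6% in the ear of animals 54, 108 and 136. These 4, and the other synonymous or paired changes named here, were picked out after their values had been seen. At the synonymous A1402A, every one of 457 to 721 reads carried the variant in each sample.

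The 10 sites that animals 108 and 136 shared without animal 54 included the neighbouring bases of codon 916. V916I was on 149 of 337 reads in marrow and 165 of 297 in the ear of animal 108, and on 159 of 296 in marrow and 125 of 260 in the ear of animal 136. V916A was on 153 of 334 and 159 of 289 marrow reads and on 167 of 302 and 125 of 265 ear reads of animals 108 and 136. The fractions at both bases were close to each other in each sample, and if both changes sat on the same molecule the codon would read V916T; the lists do not say which reads carried both. In animal 54 the same held for M36T and M36I at residue 36, a codon that reads M36T with both changes, at 43.6% and 42.4% in marrow and 43.9% and 43.9% in ear.

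**Figure D3:**
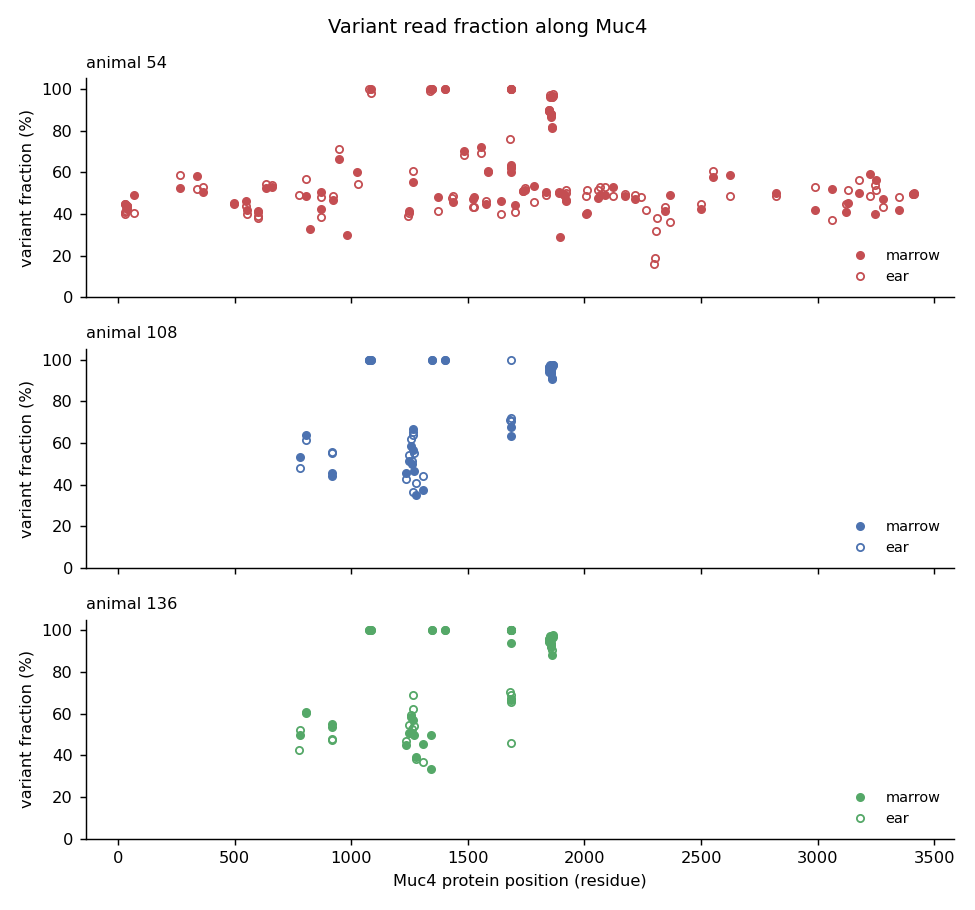
Variant read fraction (percent of reads) of each Muc4 coding site by residue, 1 panel per animal, filled for marrow and open for ear. Animals 108 and 136 have points between residues 775 and 1864 alone, while the points of animal 54 span the protein, most near a fraction of 50%; points between 81.1% and 97.8% at residues 1850 to 1864 appear in each panel.

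Animal 54 carried a further set of sites in Muc4 and Muc20 at a mapping quality of 39 or more. Of its 81 private Muc4 sites, 37 had a mapping quality of at least 40 in every list that held them. The 31 of these found in both tissues averaged 48.3% ± 5.67 in marrow and 47.8% ± 5.87 in ear (SD over sites of 1 animal, which share reads and are not replicates). Muc20, a membrane-bound mucin described mainly in kidney, had 13 missense and 6 synonymous sites, all private to animal 54 and all in both tissues, at a mapping quality of 39 to 42, with 15 of the 19 at 40 or above in both tissues. They averaged 44.9% ± 6.96 in marrow and 44.3% ± 5.14 in ear (SD over 19 sites). The Muc20 change T219A was on 59 of 152 reads in marrow and 118 of 273 in ear. P215L was on 64 of 155 reads in marrow and 113 of 273 in ear, and T199I on 48 of 124 in marrow and 101 of 265 in ear. These are intermediate fractions in both tissues. The shared site, at chromosome 16 position 32779125 in the overlap of both genes and in exon 4 of 4 of Muc20, reads G642C in Muc20 and Q3349K in Muc4, with 78 of 186 variant reads in marrow and 159 of 329 in ear. In the megabase from 32 to 33 on chromosome 16, 347 single nucleotide sites were listed in both tissues of animal 54, against 29 and 27 in animals 108 and 136. The megabase before it had 58, 0 and 1 such sites in animals 54, 108 and 136, and the megabase after it had 37, 2 and 2.

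Insertions and deletions in Muc4 gathered at 3 places: residues 1077 to 1084, residue 1347, and residues 1683 to 1685. For these the allele counts in the lists used fewer reads than the total depth, so a fraction of the allele counts can read 100% where few of the covering reads showed the change, and counts are given over total depth. The frameshift H1084fs was on 46 of 87, 63 of 89 and 83 of 104 covering reads in marrow and on 109 of 172, 80 of 104 and 45 of 61 in the ear of animals 54, 108 and 136. The frameshift L1347fs was on 99 of 104, 107 of 115 and 119 of 130 covering reads in marrow and on 161 of 173, 132 of 134 and 102 of 108 in ear. Both were in all 6 samples, at a mapping quality of 9 to 12. S1077fs, written as an insertion of 2 bases, was in 5 samples, on 26 of 52 and 16 of 37 covering reads in marrow of animals 108 and 136 and on 6 of 44, 5 of 28 and 11 of 24 in the ear of animals 54, 108 and 136. A further form of S1077fs, with 2 alternative alleles, was in the marrow of animal 108 alone, on 40 of 63 reads.

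At residues 1683 to 1685 the lists gave in-frame and frameshift forms over the same few bases, each on a small part of the reads. There were 4 in-frame records, the only ones in the 9 genes. R1683del was in marrow of animal 136 alone, on 4 of 220 covering reads. V1684dup was on 15 of 236 reads in marrow and 13 of 227 in the ear of animal 136, and a second record of V1684dup on 9 of 183 reads in marrow of animal 54. V1684_T1685insI was on 8 of 236 reads in marrow and 11 of 226 in the ear of animal 136. The highest share was 6.36% of covering reads, and none was in animal 108. Of the frameshift records, the 1-base deletion R1683fs was on 22 of 175 and 12 of 217 reads in marrow of animals 54 and 136 and on 10 of 246 and 13 of 194 in the ear of animals 108 and 136. The 1-base insertion R1683fs was on 16 of 168 and 29 of 221 reads in marrow of animals 54 and 136 and on 30 of 204 in the ear of animal 136. V1684fs was on 16 of 172 and 29 of 229 reads in marrow of animals 54 and 136 and on 30 of 212 in the ear of animal 136. Its variant read counts and mapping quality equalled those of the 1-base insertion R1683fs in each of these samples. The lists do not say whether the same reads carried both, so the records may not be separate changes. At the neighbouring synonymous V1684V the variant was in all 6 samples, on 114 of 180, 209 of 308 and 153 of 229 reads in marrow and on 219 of 350, 201 of 279 and 154 of 223 reads in the ear of animals 54, 108 and 136.

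Of the secreted mucins, Muc6, a gel-forming mucin of the stomach, had its sites in exon 32 of 34, all but 1 between residues 1799 and 2030. T1956K was complete, on 829 of 829, 1059 of 1059 and 976 of 976 reads in marrow and 1389 of 1390, 855 of 855 and 838 of 838 in the ear of animals 54, 108 and 136, at a mapping quality of 36 to 37. K2030Q was at 56.9%, 58.3% and 59.9% in marrow and 59.0%, 56.9% and 58.6% in ear, with the lowest mapping quality of the gene, 14 to 20. P1898S was at 71.3%, 74.4% and 74.5% in marrow and 73.3%, 74.1% and 70.5% in ear. A1892T was at 71.9%, 73.9% and 74.5% in marrow and 73.7%, 73.9% and 69.9% in ear. The intermediate changes K2030Q, P1898S and A1892T each spanned at most 4.62 percentage points over the 6 samples. Further missense changes were in fewer lists: H1799Q at 28.4% in marrow and 28.2% in the ear of animal 108 and at 28.5% in the ear of animal 136, and T1931N at 14.8% in marrow and 15.7% in the ear of animal 54. Muc6 depth reached 2887 reads, with a median of 16.3 times the sample median.

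Muc5b, the main gel-forming mucin of airways, had 4 sites in exon 31 of 49, and all 4 were listed in all 6 samples. Y1769H was at 47.4%, 45.9% and 41.5% in marrow and 43.3%, 46.3% and 47.6% in the ear of animals 54, 108 and 136. F1861S was at 49.1%, 51.5% and 49.3% in marrow and 52.0%, 51.4% and 51.7% in ear. The synonymous S1709S ranged from 48.3% to 51.2% in marrow and from 48.9% to 49.4% in ear, and S1823S from 38.1% to 40.8% in marrow and from 38.8% to 39.0% in ear. The 4 fractions were thus intermediate and nearly the same in 3 separate animals and in both tissues, at 494 to 1656 reads. Of the 23 single nucleotide coding sites of mucins listed in all 6 samples, 12 had 20 to 80% variant reads in each sample and the other 11 had over 80% in each. In the whole series 69.9% of 599 such sites had 20 to 80% in each sample.

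Muc2, the main mucin of the intestine, had a frameshift, V2fs, at residue 2 of a transcript annotated with 7 exons and only 236 residues. The change lies at position 141699185 of chromosome 7, inside the gene, whose RefSeq span starts at 141690340. V2fs was on 17 of 17 and 11 of 12 covering reads in marrow of animals 108 and 136 and on 24 of 24 in the ear of animal 54, at a mapping quality of 41 to 42. A splice-region change of the same gene was on every read in all 6 samples, from 25 to 58 reads. Muc5ac, a mucin of airways and stomach, had 1 site, the synonymous P1404P, on 6 of 55 reads in the ear of animal 136 (10.9%, exact 95% interval 4.11% to 22.2%).

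Marrow was then set against ear at every site called in both tissues of an animal with at least 10 reads of both alleles in each, by Fisher's exact test (two-sided) with Benjamini-Hochberg adjustment over all such sites. No mucin site passed an adjusted p of 0.05, with 111 tested in animal 54, 37 in 108 and 42 in 136. Over all sites tested, 0.0346%, 0.0327% and 0.0181% passed in these animals. At an unadjusted p under 0.05 the counts were 11, 9 and 6 mucin sites, or 9.91%, 24.3% and 14.3% of those tested, beside 8.41%, 7.43% and 6.22% of all sites. Neighbouring sites in the same gene share reads and are not independent. The shares are also set side by side at unlike depth. Depth over 5 times the sample median was found at 56.9% of mucin values, beside 7.48% of all coding values. With more reads, a smaller difference reaches the same p.

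The lowest adjusted p was at I1268F of Muc4 in animal 108, with 486 of 1039 variant reads in marrow and 536 of 975 in ear, a difference of -8.20 percentage points (95% interval -12.6 to -3.84, Fisher's exact test, adjusted p = 0.142). In animal 54 the lowest were T2011N, with 166 of 410 variant reads in marrow and 356 of 694 in ear, and T804A, with 362 of 747 in marrow and 613 of 1082 in ear (Fisher's exact test, adjusted p = 0.173 for both). In animal 136 it was the synonymous P1926P of Muc6, with 580 of 2301 variant reads in marrow and 479 of 1662 in ear (Fisher's exact test, adjusted p = 0.566). All 4 had a lower fraction in marrow. Over the 190 tests marrow was higher in 77, lower in 96 and equal in 17. In those 17 the variant was on every read of both alleles in both tissues, so they could not pass.

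The 25 mucin sites called in all 6 samples were tested over the 3 animals together with the Cochran-Mantel-Haenszel test, the animal being the stratum. Among them, the Muc2 splice-region change and L1347fs and A1402A of Muc4 were on every read of both alleles in all 6 samples. These could not pass whatever the tissue. None of the 25 passed after Benjamini-Hochberg adjustment over all 4444 sites tested, of which 0.0225% passed, and 1 of the 25 had an unadjusted p under 0.05, beside 8.06% of all sites. The mucin site was P1926P of Muc6, at 26.1%, 27.1% and 25.2% in marrow and 26.3%, 28.5% and 28.8% in the ear of animals 54, 108 and 136. Its adjusted p was 0.593 by the Cochran-Mantel-Haenszel test. Its fraction was lower in marrow in all 3 animals, by 1.73 ± 1.75 percentage points (SD over animals). The mean difference over mucin sites, marrow minus ear, was 0.149, -1.31 and 0.479 percentage points in animals 54, 108 and 136, a mean of -0.229 ± 0.954 (SD, n = 3). The sign of this mean turned at a mapping quality of at least 40 in both tissues, where it was 0.320 ± 0.554 with only 1 site each in animals 108 and 136, and without animal 108, where it was 0.314. Over all sites tested the means were 0.0145, -0.0818 and -0.445 percentage points. Insertions and deletions entered the mucin means with their fractions of the allele counts. The highest difference in animal 136 was 20.8 percentage points at V1684_T1685insI, from 8 of 12 reads in marrow and 11 of 24 in ear. Over total depth this insertion was on 8 of 236 and 11 of 226 reads. It raised the mean of animal 136, and so the mean without animal 108. At 20 reads in each tissue, which leaves out this and other sites, the mucin mean over animals was -0.333 ± 0.850.

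**Figure D4:**
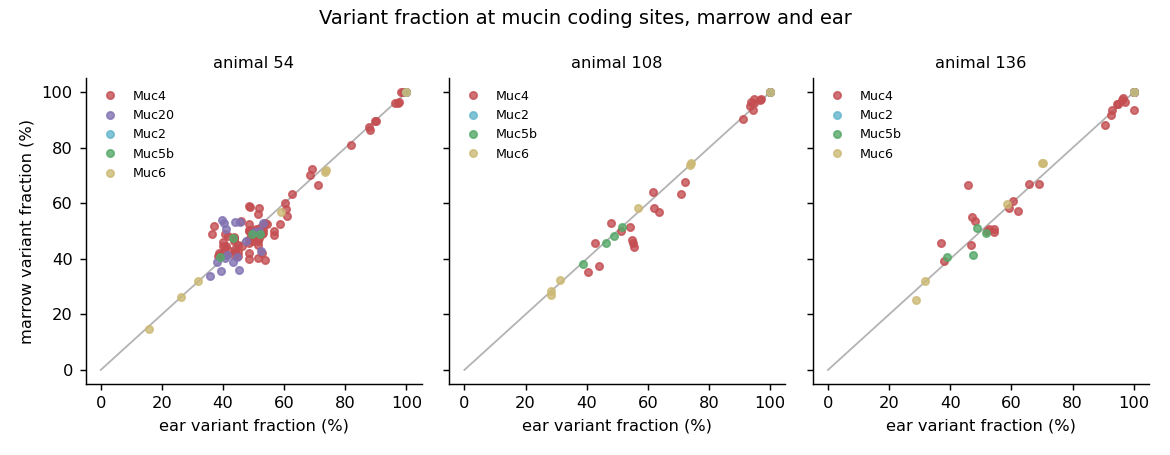
Variant fraction in marrow (vertical axis, percent) against ear (horizontal axis, percent) at each mucin coding site tested, 1 panel per animal, coloured by gene, with the line of equal fractions. Points follow the line in each panel, and none of the 111, 37 and 42 sites passed the test. Insertions and deletions are included, by their reads of both alleles.

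The authors also called somatic changes, meaning changes in marrow compared with ear of the same animal, with VarScan2 and Strelka. In the authors' deposited table of VarScan2 calls, 16 of 3272 calls marked somatic were in the 9 mucins, all of them in Muc4. They were 11 of the 155 protein-altering VarScan2 somatic calls of the series, or 7.10%, all missense. There were 8 in animal 54, all missense, 7 in animal 108, of which 3 were missense, and 1 synonymous call in animal 136. VarScan2 somatic calls in all genes numbered 1028, 1683 and 561 in animals 54, 108 and 136. The Muc4 calls all lay between residues 710 and 1906, in the stretch of low mapping quality, and no position was called in a second animal.

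In every one of the 16 calls the variant was in ear as well. None of the 16 was in the all-variant list of the marrow in which it was called. Marrow fractions ran from 20.1% to 27.4% and ear fractions from 10.4% to 20.8%, with differences of 3.49 to 11.2 percentage points. The median was 22.0% in marrow and 17.4% in ear, at median depths of 649 and 685.5 reads. VarScan2 somatic calls outside the mucins had a median of 30.8% in marrow and 9.12% in ear, at median depths of 31 and 33 reads.

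The lowest p in Muc4 was at P1289S of animal 54, with 265 of 995 variant reads in marrow and 286 of 1463 in ear (somatic p = 2.4e-05 in the authors' deposited table). P1233L of animal 54 had 210 of 886 in marrow and 249 of 1426 in ear (p = 0.000172), and I1290S had 250 of 912 in marrow and 266 of 1279 in ear (p = 0.000206), both in the authors' deposited table. P1233L was absent from the all-variant lists of animal 54 but listed in those of the other animals. There it was on 467 of 1022 and 435 of 967 reads in marrow and on 439 of 1025 and 342 of 730 reads in the ear of animals 108 and 136. These p-values, from the caller's own test, are not adjusted for the number of positions examined. Of the other calls in animal 54, I737N, S919L, P1335L, A1402S and S1906A, the authors' deposited table gives P1335L the fewest reads, 19 of 88 in marrow and 12 of 115 in ear (p = 0.0235).

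In animal 108 the largest of the differences was at G904V, with 93 of 412 variant reads in marrow and 53 of 370 in ear (p = 0.00199 in the authors' deposited table). P996S had 139 of 655 in marrow and 97 of 655 in ear (p = 0.00157 in the authors' deposited table). T1627I and the synonymous T1627T, on neighbouring bases, had 177 of 813 and 189 of 798 variant reads in marrow and 141 of 807 and 145 of 810 in ear. The other calls of this animal, T710T, G1032G and T1251T, and S1569S in animal 136 were synonymous, with 3.49 to 4.51 percentage points between marrow and ear. VarScan2 further marked a 1-base deletion, T1681fs, as loss of heterozygosity in animal 108. It was on 94 of 120 reads of both alleles in marrow and 65 of 106 in ear (somatic p = 0.004 in the authors' deposited table). T1681fs is at the position of the R1683fs deletion above. The all-variant list of that ear has R1683fs on 10 of 246 covering reads, and on 10 of 10 reads of both alleles. The reads counted differ between the callers, so these shares are not the same measure.

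**Figure D5:**
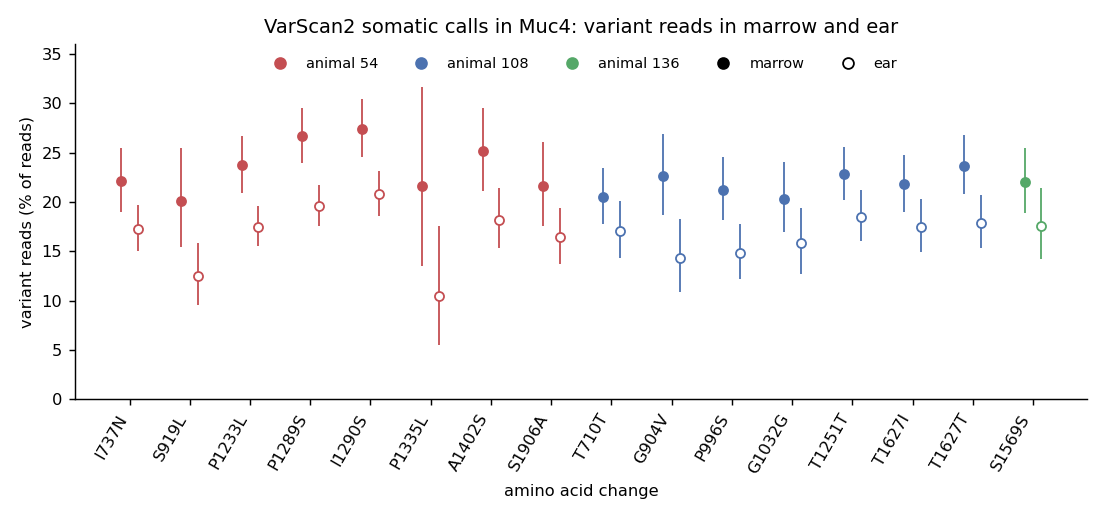
Variant reads in percent of all reads at the 16 VarScan2 somatic calls in Muc4, ordered by animal and residue, with filled points for marrow and open points for ear, and exact 95% intervals of counting error. Marrow points lie between 20.1% and 27.4% and each ear point lies below its marrow point, between 10.4% and 20.8%.

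Strelka placed 5 of its 6603 passed calls in the mucins and none in Muc4. The only one that altered a protein was T3737A of Muc5b in animal 54, with a quality of 27 in the authors' deposited table. The other calls were an intron change of Muc2 in animal 54 (quality 33), a change in the 5′ untranslated region of Muc2 in animal 108 (quality 15), an intron change of Muc5ac in animal 136 (quality 28) and a change downstream of Muc1 in animal 54 (quality 15), all in the authors' deposited table. These lists give no read counts. No mucin position was called by both callers.

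A pair of further gene lists was read for the same measures: 22 symbols of other mucins and mucin-domain proteins and 34 of mucin assembly and O-glycosylation. In the first list 3 genes had coding sites, 12 in all with a median mapping quality of 42 and a lowest value of 14. Of these, Muc15 held 9 sites with a median of 42 and Prg4 held 2 with a median of 28. In the second list 9 genes had 21 sites, also with a median of 42. No site of either list passed Fisher's exact test, out of 10 and 24 tests. Protein-altering Strelka calls were T3N of Muc15 in animal 54 (quality 74), V250L of Muc3 in animal 108 (quality 18), G1332D of Fcgbp, a mucus-associated protein, in animal 108 (quality 32), and the stop W649* of Galnt7, an enzyme of O-linked glycosylation, in animal 108 (quality 34), all in the authors' deposited table.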

How the data were processed

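Exome capture sequencing of marrow and ear from 3 mice was analysed at 9 mucin genes; members and gene lists were chosen with earlier results of these data known. Per the file headers, the authors made the all-variant lists by SAMtools with SnpEff annotation, with counts of reads per allele, total depth and mapping quality. The authors' deposited VarScan2 tables give read counts, variant fractions (percent) and somatic p-values; the deposited Strelka lists give a quality score. The submitters' processing notes name FastQC, Bowtie2, SAMtools and 2 builds (mm9, GRCm38) without roles. All 159 gene-assigned coding sites lay inside the RefSeq span of their gene in GRCm38.p6, so positions are given in that build. The callers' filters: not given in the sources used here.

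A site kept its annotation of highest impact for the gene; coding means an impact of LOW or above, protein-altering HIGH or MODERATE. Variant fraction is variant reads over reads of both alleles. Tests needed 10 reads per sample: Fisher's exact test within an animal and the Cochran-Mantel-Haenszel test over animals, each adjusted over all sites and checked on simulated reads (scipy 1.17.1). Marrow and ear of one number are from one animal, per the labels. Over 4444 sites their deviations from the tissue means correlated at 0.153, 0.196 and 0.111 in animals 54, 108 and 136. Between marrow and ear of different animals the correlations ran from -0.125 to -0.022. Deviations from a mean over 3 animals cancel out, so the matched and mismatched values are not independent. VarScan2's tumor and normal columns were taken as marrow and ear: at 601 of 618 positions shared with both all-variant lists their fractions were nearer to those tissues than when swapped. Named sites are every in-frame or HIGH impact site, every test pass or somatic call, and up to 6 missense sites per gene called in most samples (lowest mapping quality first). For Muc20, where ties remained, 3 are given.

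With 1 sample per tissue and animal, p-values within an animal compare 2 libraries and cover the counting of reads only; reads lack molecular identifiers.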

Additional observations from a re-analysis of the deposited data

How the results depend on the processing

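The count of mucin sites passing Fisher's exact test within an animal was 0 at 20 reads, at a mapping quality of at least 40 in both tissues (46, 1 and 1 sites left in animals 54, 108 and 136), for single nucleotide sites only and for sites under 90% in at least 1 tissue. Over the 3 animals it was 0 with each animal left out, at 20 reads, and with reads summed over animals without the animal as a block. The mean difference lay within 1 SD of its value under every alternative run, between -0.582 and 0.314 with 1 animal left out, and turned positive without animal 108 and, at 0.320, at a mapping quality of at least 40. The 112 protein-altering sites became 38 at a mapping quality of at least 40, and from 45 to 107 with 1 animal left out, 45 being without animal 54. The 4 in-frame records became 0 at a mapping quality of at least 40, and from 1 to 4 with 1 animal left out, 1 being without animal 136. The median mapping quality of 24 at coding sites was 41 with introns and flanks included. The 21 somatic calls became 10 with a VarScan2 somatic p under 0.01 and a Strelka quality of at least 30, and 12 when limited to protein-altering calls. The lists carry no variant quality column, so the planned limit on it was not run; a limit of 30 on the SAMtools consensus quality, chosen after seeing the data, left 101 protein-altering sites and 3 in-frame records. The share of sites inside protein repeats was not run, since no protein sequence was used here.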
